A study of Mus musculus with 16 samples.

Results

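The 5 genes described here, Spry2, Spry4, Etv4, Etv5 and Dusp6, are the classical transcriptional readout of FGF signalling through the kinase ERK. They were taken by symbol from a table of 14552 genes. All 5 were present and all 5 passed the filter on low values, which 13355 genes passed.

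The libraries were made from mRNA of E14 cells, a mouse embryonic stem cell line, with an auxin-inducible degron on Ddx10 and the plant F-box protein Tir1, which directs the tagged protein to degradation when auxin is present. The 8 groups held 2 libraries each, 16 in all: untreated cells (0 h), cells in 500 µM auxin for 2, 4, 6 or 12 h or for 1 or 2 days, and cells left for 2 more days in medium free of auxin after 2 days in it. The last group is called withdrawal. Cells of every group, untreated included, carried the degron and Tir1 and grew on gelatin in DMEM with 15% serum and 1000 U/mL LIF. Their medium also held 3 µM CHIR99021, a GSK3 inhibitor, and 1 µM PD0325901, a MEK inhibitor, so all levels below are those of cells grown with a MEK inhibitor in every group. Auxin was not analysed here in cells that lack the tag, so auxin itself and loss of DDX10, a DEAD-box RNA helicase, cannot be told apart. The labels name no separate cultures for replicates and no number of clones, so p-values reflect spread among these samples alone, possibly technical spread. The series asks how transcripts change as DDX10 is depleted and how they return, and here that question is put to this set of genes.

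All 5 genes are protein coding, and their exons overlap those of no other gene in the GENCODE M21 annotation of GRCm38, the assembly also called mm10. Spry2 (ENSMUSG00000022114) lies on the minus strand at chr14:105891947-105896819 and Spry4 (ENSMUSG00000024427) on the minus strand at chr18:38586247-38601415. Etv4 (ENSMUSG00000017724) lies on the minus strand at chr11:101769742-101785371, Etv5 (ENSMUSG00000013089) on the minus strand at chr16:22381309-22439719, and Dusp6 (ENSMUSG00000019960) on the plus strand at chr10:99263231-99267489.

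FGF ligands bind receptor tyrosine kinases together with heparan sulphate, and adaptors pass the signal to RAS, RAF, MEK and ERK. ERK then switches on transcription factors and, with them, its own inhibitors. ETV4 and ETV5 are ETS factors that carry the response to the genome, Sprouty proteins SPRY2 and SPRY4 restrain signalling between receptor and RAF, and DUSP6 is a cytoplasmic phosphatase that removes the activating phosphates from ERK. In mouse embryonic stem cells, which make FGF4 themselves, ERK activity favours exit from the naive state, and a MEK inhibitor with a GSK3 inhibitor and LIF is used to hold cells in it.

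RefSeq promoter windows of GRCm38.p6, 250 bases before to 50 after a start site, were at hand for 3 of the 5 genes: 1 for Dusp6, 1 for Spry2 and 2 for Etv5. The 250 bases before the start are printed for 3 windows, 5′ to 3′ on the gene's strand, because they put side by side a gene that fell 1.97-fold in 2 days of auxin (Dusp6), one that fell 1.28-fold (Etv5) and one that did not pass the test (Spry2). None of these bases lies in an annotated exon of the same gene. Capitals mark GGAA, the core of the sequence that ETS factors bind, or TTCC, the same core on the other strand.
Dusp6, chr10:99262981-99263230, plus strand: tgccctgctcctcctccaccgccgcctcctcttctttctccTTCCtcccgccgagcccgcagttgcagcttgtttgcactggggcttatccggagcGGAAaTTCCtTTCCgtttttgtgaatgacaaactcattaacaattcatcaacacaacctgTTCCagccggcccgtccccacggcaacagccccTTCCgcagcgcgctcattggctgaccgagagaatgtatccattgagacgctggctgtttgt
Etv5, inner start, chr16:22438369-22438618, minus strand: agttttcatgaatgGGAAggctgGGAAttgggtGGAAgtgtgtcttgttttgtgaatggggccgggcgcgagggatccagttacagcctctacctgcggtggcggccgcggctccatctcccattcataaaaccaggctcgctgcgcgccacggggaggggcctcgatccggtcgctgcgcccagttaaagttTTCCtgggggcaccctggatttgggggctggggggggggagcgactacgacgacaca
Spry2, chr14:105896820-105897069, minus strand: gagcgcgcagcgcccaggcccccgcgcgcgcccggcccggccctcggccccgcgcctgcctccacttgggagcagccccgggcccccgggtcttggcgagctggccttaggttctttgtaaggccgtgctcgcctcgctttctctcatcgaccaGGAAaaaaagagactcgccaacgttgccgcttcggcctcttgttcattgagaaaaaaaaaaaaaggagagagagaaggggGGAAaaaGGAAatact

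GGAA occurred on either strand 6 times in the whole 300-base window of Dusp6, 6 times in that of the inner Etv5 start and 5 times in that of Spry2. At the outer Etv5 start, whose upstream bases run into annotated exons and are not shown, it occurred 0 times. Such short cores are common: 96.0% of 32851 windows of this length held at least 1, with a median of 3 and quartiles of 2 and 5. The longer core CCGGAA, held by 14.9% of windows, matched once, 34 to 39 bases after the Spry2 start. The form GGAAGT, held by 23.8%, matched 2 times at the inner Etv5 start, and each match overlaps a GGAA core. The GC box GGGCGG (35.7% of windows) matched 3 times at the outer Etv5 start. The cAMP response element core TGACGT, the AP-1 site TGACTCA and the TATA box TATAAA, held by 7.51%, 5.2% and 13.6% of windows, matched in none of the 4 windows. All were searched on both strands. These matches describe letters in the windows, and the expression data say nothing of binding there.

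The libraries held an estimated 13.5 M to 17.5 M reads on the genes of the table, judged from the step between low values. At that depth Spry4, the least abundant member, rested on an estimated 21.9 to 599.6 reads per library, and Etv5 on 7801 or more. Values are normalized counts, given per library in the order of replicate 1 and 2, then as mean ± SD. Changes are differences of log2(value + 1), which slightly understates changes of low genes, and p-values are from limma, adjusted over all 13355 tested genes within a comparison. A gene is said to rise or fall where that adjusted p was below 0.05. Replicates were further apart in untreated cells and at 1 day, where the log2 difference between the replicates had an SD over genes of 0.619 and 0.533, than in the other groups (0.368 to 0.414). The 8 libraries of 2 to 12 h stood apart from the other 8: 1015 of the 13355 tested genes separated them completely. The members among these were 0 of 5, which at such a share does not show that the members are free of the split. Comparisons of libraries of 2 to 12 h with untreated cells or with 1 day cross this split. In all such changes below, the part of a difference between these sets of libraries was not tested. Ddx10 mRNA, at 1433 and 1509 in untreated cells and 997 and 1041 at 2 days, does not check a degron that acts on the protein.

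The labelled cell type was checked against its markers. All 10 embryonic stem cell markers listed were present, and their summed level was 108498 to 115331 in untreated cells, 85979 to 88045 at 12 h, 109226 to 113533 at 2 days and 123468 to 125966 after withdrawal. Single markers went both ways at 2 days. Klf4, Fbxo15, Tdgf1 and Nanog were called higher (1.09, 0.92, 0.48 and 0.21). Utf1, Zfp42 and Pou5f1 were called lower (-1.13, -0.40 and -0.32), and Sox2, Esrrb and Dppa5a did not pass. Utf1 was at -2.15 against untreated at 12 h. Markers of the primitive endoderm, a lineage that FGF signalling favours in the embryo, were 9 of 10 in the table, with 0 of them at 0. Their sum was 2391 to 4584 in untreated cells, 10093 to 10658 at 2 days and 4821 to 4875 after withdrawal. At 2 days 5 of 7 tested were higher (21% of all tested genes were). Most of the sum at 2 days came from Lama1, Col4a1 and Sparc (means 2612, 3174 and 4430), all called higher. The other tested markers were low at 2 days. Gata6 and Dab2 (means 17.5 and 52.6) were called higher, and Gata4 and Pdgfra (40.2 and 31.2) did not pass. The 5 were 3 with library weights, and fewer than 5 without the first untreated library or without the first library of 2 days. With a mean of at least 50 only Lama1, Col4a1 and Sparc were still tested, and all 3 were called. Gata6, 1 of the 5, held 1.24 and 4.06 in untreated cells, so it reached the average of 10 needed for testing only through groups where it was higher, and it is named here after its values were seen. Mesoderm markers (6 of 8) summed to 206 to 553 over all groups, neuroectoderm markers (5 of 8) to 1586 to 2724, trophoblast markers (4 of 9) to 896 to 2059, with 1 of them at 0 in untreated cells, and fibroblast markers (3 of 8) to 124 to 238. The trophoblast sum was also higher at 2 days (1965 to 2059) than in untreated cells (896 to 1373) or after withdrawal (1079 to 1098). Of its tested genes Tfap2c rose by 1.38 at 2 days, Krt8 fell by 0.62 and Cdx2 did not pass. The mesoderm, neuroectoderm and fibroblast sums at 2 days did not lie above those of untreated cells, but single genes went both ways. The mesoderm gene Gsc and the neuroectoderm gene Nes were called higher at 2 days (3.37 and 1.40). Eomes (mesoderm), Tubb3 (neuroectoderm) and Thy1 (fibroblast) were called lower (-0.63, -0.77 and -1.68). The other tested genes of these lists did not pass. In these bulk libraries fewer cells of a type and less RNA per cell cannot be told apart, and the part of cells with endoderm markers in the changes described below was not tested.

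**Figure D1:**
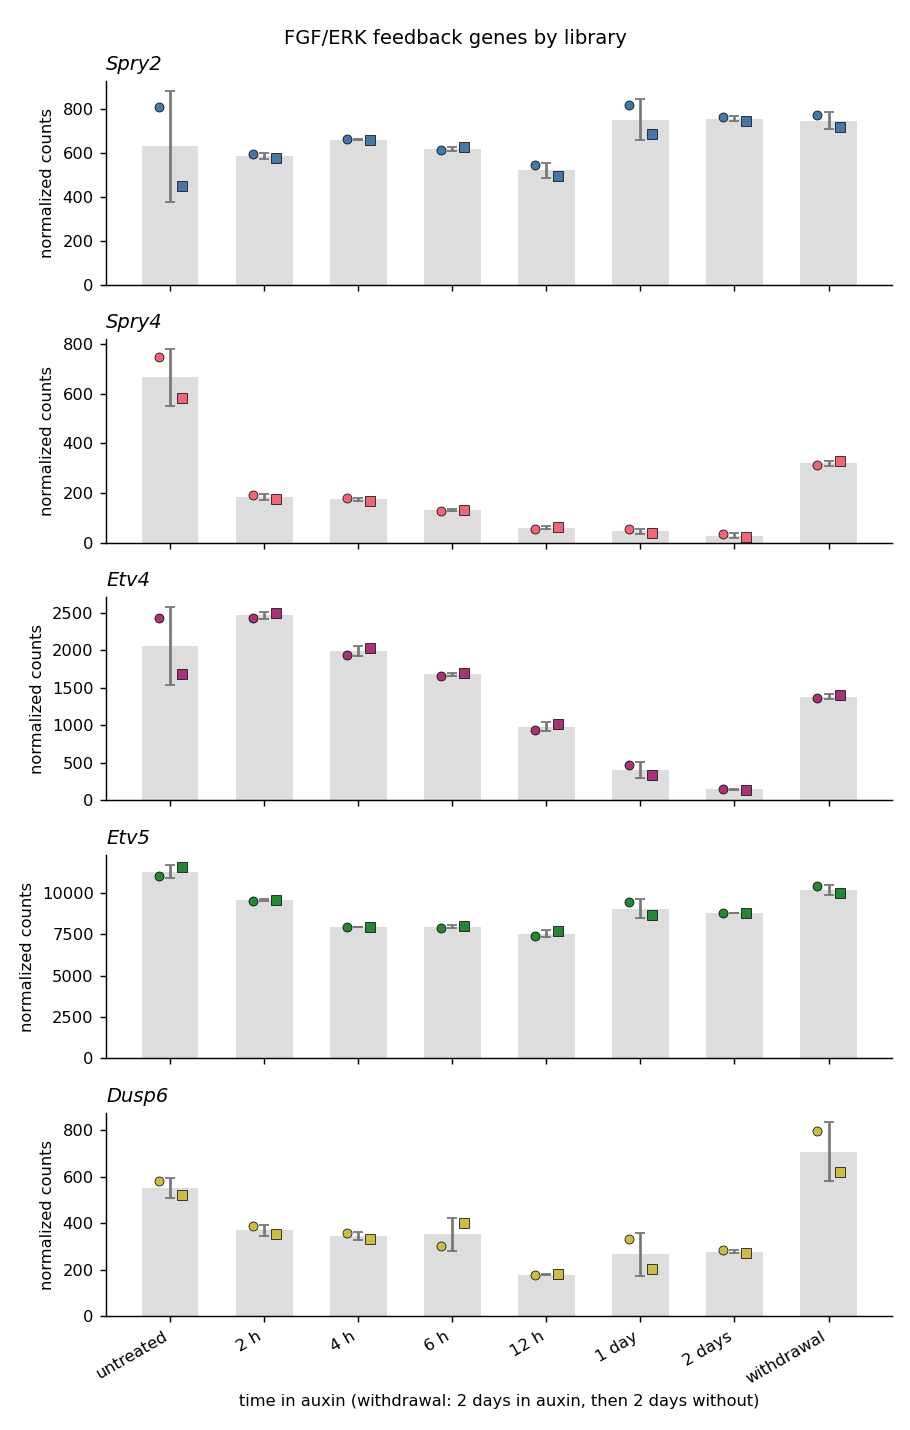
Normalized counts of the 5 genes in each of the 8 groups (1 panel per gene, linear axis from 0). Bars show the mean and error bars the SD of 2 libraries, circles replicate 1 and squares replicate 2. Spry4 and Etv4 drop to 27.0 and 150.02 at 2 days and rise again on withdrawal, while Spry2 stays between 451.7 and 821.

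Under auxin the set split. After 2 days Spry4 had fallen to 4.05% of its untreated mean, Etv4 to 7.30%, Dusp6 to 50.5% and Etv5 to 77.9%, while Spry2 stood at 120.1% and did not pass the test. So 4 of the 5 genes fell at 2 days and 0 rose, against 23.8% of all tested genes falling and 21% rising. The median log2 change of the 5 was -0.98, and that of all tested genes -0.01. In the F-test over all 8 groups, which 68.6% of genes passed, Etv4, Spry4, Etv5 and Dusp6 passed with limma adjusted p of 6.06e-09, 6.05e-08, 1.67e-05 and 4.97e-05. Spry2 did not (0.131).

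Spry4, a Sprouty inhibitor, had the largest fall of the 5 genes both at 2 h and at 2 days. Its libraries held 748 and 584 normalized counts in untreated cells (666 ± 116, SD, n = 2) and 193 and 174 after 2 h (183 ± 13.3, SD, n = 2). After 4 h it held 179 and 169, after 6 h 129 and 133 and after 12 h 56.4 and 64.3. The pair of 1 day held 52.7 and 37.0, and that of 2 days 33.7 and 20.3 (27.0 ± 9.47, SD, n = 2). Every auxin library lay below every untreated one, and of neighbouring groups in the order of means only 2 h and 4 h overlapped. Against untreated the change was already -1.85 (SE 0.23, limma adjusted p = 0.000328) at 2 h, a 3.60-fold fall. It reached -3.43 at 12 h (limma adjusted p = 3.96e-07) and -4.61 at 2 days (limma adjusted p = 1.52e-08), a 24.4-fold fall. Between 2 and 12 h it fell by a further 1.59 (limma adjusted p = 0.000292). From 1 day to 2 days the change was -0.73 and did not pass (limma adjusted p = 0.0858). It passed when the second library of 1 day (-0.98, adjusted p = 0.040) or the first of 2 days (-1.09, adjusted p = 0.040) was left out.

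Spry2 is the other Sprouty gene of the set and acts at the same steps of the pathway. It held 811 and 452 in the untreated libraries (631 ± 254, SD, n = 2), then 596 and 576 (2 h), 663 and 659.5 (4 h), and 614 and 626 (6 h). The 12 h pair held 545 and 497, the 1-day pair 821 and 687, the 2-day pair 767 and 749 (758 ± 12.8, SD, n = 2), and the withdrawal pair 776 and 721. The untreated libraries enclosed the values of 2, 4, 6 and 12 h, 2 days and withdrawal, and 1 library of 1 day lay above both. None of the 7 comparisons with untreated passed the test; at 2 days the change was 0.32 (SE 0.19, limma adjusted p = 0.182). The outcome turns on which untreated library is used. Without the first untreated library Spry2 was called higher at 4 h (0.55), 6 h (0.46), 1 day (0.73), withdrawal (0.73) and 2 days (0.75, limma adjusted p = 0.00027). Without the second it was called lower at 2 h (-0.47), 6 h (-0.39) and 12 h (-0.64, limma adjusted p = 0.0012), and the 2-day change was -0.10. Spry2 thus has no settled direction against untreated in these libraries. Among auxin groups, it was lowest at 12 h, and the step from 12 h to 1 day was 0.53 (limma adjusted p = 0.0501), which passed at an adjusted p of 0.0014 without either untreated library.

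Etv4 fell late. The untreated libraries held 2428 and 1685 (2056 ± 525, SD, n = 2) and those of 2 h 2431 and 2497 (2464 ± 47.1, SD, n = 2). The 4 h pair held 1939 and 2031, the 6 h pair 1662 and 1695 and the 12 h pair 944 and 1024. By 1 day the libraries held 477 and 333, and by 2 days 156 and 144 (150.02 ± 7.98, SD, n = 2). From 2 h on, each time lay below the one before with no overlap, and only untreated and 4 h overlapped among neighbours in the order of means. Against untreated the changes at 2, 4 and 6 h were 0.28, -0.03 and -0.27 and did not pass (limma adjusted p = 0.253, 0.927 and 0.247). They turn on the untreated pair: without its first library the 2 h change was 0.55 (adjusted p = 0.037) and the 4 h change 0.24, and without its second the 6 h change was -0.53 (adjusted p = 0.026). The change was -1.04 at 12 h (SE 0.16, limma adjusted p = 0.000256), -2.34 at 1 day (limma adjusted p = 2.64e-07) and -3.75 at 2 days (limma adjusted p = 4.63e-09), a 13.4-fold fall. Its steps were of like size over unlike lengths of time. They were -1.32 from 2 to 12 h (limma adjusted p = 7.07e-05), -1.30 from 12 h to 1 day (limma adjusted p = 0.000128) and -1.40 from 1 day to 2 days (limma adjusted p = 0.000495). The step from 12 h to 1 day crosses the split of libraries named above. That from 1 day to 2 days missed the threshold when those 2 groups were fitted alone (adjusted p = 0.14). From 2 to 6 h the change of -0.55 had a limma adjusted p of 0.0524, which became 0.015 without either untreated library, 0.014 without either library of 1 day and 0.00019 in a fit of the 8 libraries of 2 to 12 h alone.

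Etv5, the close relative of Etv4 in the PEA3 group of ETS factors, was the most abundant member and changed little. Its untreated libraries held 10991 and 11589 (11289.8 ± 423, SD, n = 2). Those of 2 h held 9515 and 9595, of 4 h 7926 and 7918, of 6 h 7893 and 8014, and of 12 h 7396 and 7669.7 (7533 ± 193, SD, n = 2). At 1 day they held 9442 and 8638, and at 2 days 8795 and 8788 (8791 ± 4.53, SD, n = 2). All auxin libraries lay below both untreated ones, with the lowest at 12 h. The changes were small but passed at each of the 6 times: -0.24 at 2 h (SE 0.059, limma adjusted p = 0.0154), -0.51 at 4 h, -0.50 at 6 h, -0.58 at 12 h (limma adjusted p = 7.57e-06), -0.32 at 1 day and -0.36 at 2 days (limma adjusted p = 0.000232). From 12 h to 1 day, a step that crosses the split of libraries named above, Etv5 rose by 0.26 (limma adjusted p = 0.00507), where Etv4 fell. The 2 h call was lost without the second untreated library (adjusted p = 0.053), the first (0.086) or second (0.095) library of 2 h, and with the 2 groups alone (0.11). The 1-day call was lost with the 2 groups alone (adjusted p = 0.16), and the rise from 12 h to 1 day without the first 12 h library (0.053) or with the 2 groups alone (0.11).

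Dusp6 was lower than untreated from 4 h on and lowest at 12 h. Its untreated libraries held 581 and 520.2 (550.4 ± 42.7, SD, n = 2), those of 2 h 386 and 352, of 4 h 356 and 333, of 6 h 302 and 402, and of 12 h 178 and 181 (179 ± 1.97, SD, n = 2). At 1 day they held 332 and 201 and at 2 days 283 and 273 (278 ± 7.32, SD, n = 2). All auxin libraries were below both untreated ones, while 2 h, 6 h and 4 h overlapped in turn, as did 2 days and 1 day. At 2 h the change was -0.57 (SE 0.20, limma adjusted p = 0.0729), with an adjusted p of 0.017 without either library of 1 day. At 4 h (-0.67, limma adjusted p = 0.0347) and 6 h (-0.66, limma adjusted p = 0.0317) it passed narrowly. The 4 h call was lost without any 1 of the 4 libraries compared (adjusted p = 0.056 to 0.15) and with library weights (0.076). The 6 h call was lost without the first (0.13) or second (0.052) untreated library, without the first library of 6 h (0.25), with library weights (0.061) and with the 2 groups alone (0.063). At 12 h the change was -1.61 (limma adjusted p = 4.94e-05), a 3.05-fold fall, at 1 day -1.09 (limma adjusted p = 0.00108) and at 2 days -0.98 (limma adjusted p = 0.0015). The step from 12 h to 1 day was 0.52 (limma adjusted p = 0.0675), and 0.88 (adjusted p = 0.0063) without the second library of 1 day.

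**Figure D2:**
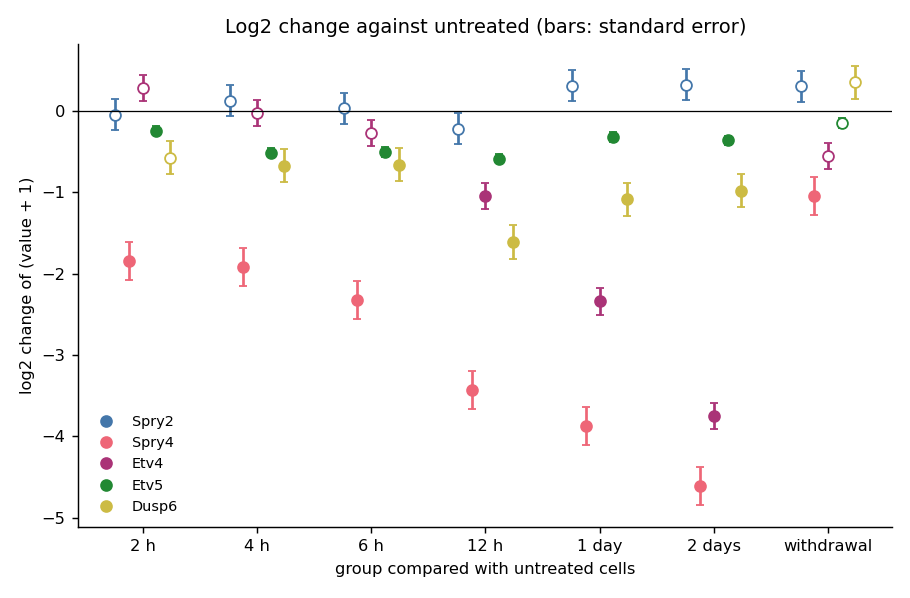
Log2 change of each gene (y axis, log2 of value + 1) in each comparison with untreated (x axis, time in auxin or withdrawal), with error bars of 1 SE from limma. Filled points passed an adjusted p of 0.05 and open points did not. Spry4 is at -1.85 by 2 h, Etv4 is at 0.28 then and at -3.75 at 2 days, and all points of Spry2 are open.

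Counted by time, 2 of the 5 genes were lower than untreated at 2 h (Spry4 and Etv5), where 8.45% of tested genes were lower, and 3 at 4 h (with Dusp6), where 10.2% were. Spry4, Etv5 and Dusp6 were lower by 6 h as well, beside 13.4% of genes. From 12 h on 4 were lower, against 18.3% of genes at 12 h and 17.7% at 1 day. At 2 h the count was 1 when those 2 groups were fitted alone or without either 2 h library, and 3, with Dusp6, without either library of 1 day. Between 12 h and 2 h, all libraries of which lie on the same side of the split named above, 4 of 5 fell (13.7% of genes fell), and all 4 did so in each alternative run. Between 4 h and 2 h (0.681% of genes lower) and between 6 h and 2 h (3.35%) only Etv5 fell, by 0.27 (limma adjusted p = 0.0272) and 0.26 (limma adjusted p = 0.0142). Both calls were lost without any 1 of the 4 libraries compared, at adjusted p of 0.083 to 0.21, and the first also without either library of 6 h (0.051). The fit of the 8 libraries of 2 to 12 h alone called 2 members in each of these, Etv5 and Etv4. From 12 h to 1 day, a step that crosses that split and where 30.4% of genes changed either way, Etv5 rose and Etv4 fell. That count of 2 was 1 without the first 12 h library or with the 2 groups alone, and 3 without either untreated library or the second library of 1 day. From 1 day to 2 days (4.07% of genes lower) Etv4 alone of the 5 fell, joined by Spry4 without the second library of 1 day or the first of 2 days. With the 8 libraries of 2 to 12 h out of the fit, the same 4 members were lower at 1 day and at 2 days, Spry4 at a limma adjusted p of 7.1e-05 and Etv4 at 6.1e-05 in the latter. The F-test over 2, 4, 6 and 12 h, which 20.4% of genes passed, was passed by Etv4, Spry4, Etv5 and Dusp6 (limma adjusted p = 0.000389, 0.00091, 0.00391 and 0.00632) and not by Spry2 (0.525).

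After 2 days without auxin the 4 genes that had fallen rose again. Against 2 days of auxin, Spry4 rose by 3.56 (SE 0.23, limma adjusted p = 1.29e-07), Etv4 by 3.19 (SE 0.16, limma adjusted p = 1.57e-08), Dusp6 by 1.33 (limma adjusted p = 0.000164) and Etv5 by 0.21 (limma adjusted p = 0.0101). That is 4 of 5, against 22.2% of tested genes rising. Spry2 did not pass, with a change of -0.02 (limma adjusted p = 0.945). The Etv5 rise was lost without the second library of 2 days (adjusted p = 0.052), without the first of withdrawal (0.085), and with the 8 libraries of 2 to 12 h out of the fit (0.077).

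The means after withdrawal stood at different shares of untreated from gene to gene, and these differences between genes were not tested. Spry4 held 312 and 327.5 after withdrawal, 48.0% of the untreated mean, and stayed below both untreated libraries. It was the 1 member of 5 lower than untreated (-1.05, limma adjusted p = 0.0313), in a comparison in which 1.07% of genes were lower. That call was lost without the first untreated library (adjusted p = 0.079), either withdrawal library (0.18 and 0.14) or either library of 6 h (0.053), and with library weights (0.13), the 2 groups alone (0.20) or the 2 to 12 h libraries left out (0.24). Etv4 held 1359 and 1402.5, 67.2% of untreated, also below both untreated libraries. Its change of -0.55 did not pass (limma adjusted p = 0.0914), but did without the second untreated library (-0.81, adjusted p = 0.018) and without either library of 1 day (0.028). Etv5 held 10414.5 and 9985 (90.3%), with a change of -0.15 (limma adjusted p = 0.211). Dusp6 held 796 and 618, 128% of untreated and above both untreated libraries, with a change of 0.35 that did not pass (limma adjusted p = 0.409).

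The genes of a pair parted company over the time course, as ratios within a library show. The Etv4 to Etv5 ratio, in percent of its untreated geometric mean, was 123% and 81.1% in untreated libraries, 143% and 145% at 2 h, and 118% in both libraries at 6 h (117.5% and 118.0%). It was 71.2% and 74.5% at 12 h, 28.2% and 21.5% at 1 day, and 9.88% and 9.17% at 2 days, and it came back to 72.8% and 78.4% on withdrawal. The Spry4 to Spry2 ratio was 84.4% and 118% in untreated libraries and already 29.6% and 27.6% at 2 h. It was 9.47% and 11.8% at 12 h, 4.02% and 2.48% at 2 days, and 36.8% and 41.6% on withdrawal. For the first pair the 2 h libraries lay above the untreated ones and the 2-day libraries below, and for the second all auxin and withdrawal libraries lay below. At 2 days against untreated the log2 ratio differed by -3.39 for Etv4 to Etv5 and by -4.99 for Spry4 to Spry2. The exact two-sided permutation test gave p = 0.333 for each, the smallest that 2 against 2 libraries allow, so it cannot pass 0.05.

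**Figure D3:**
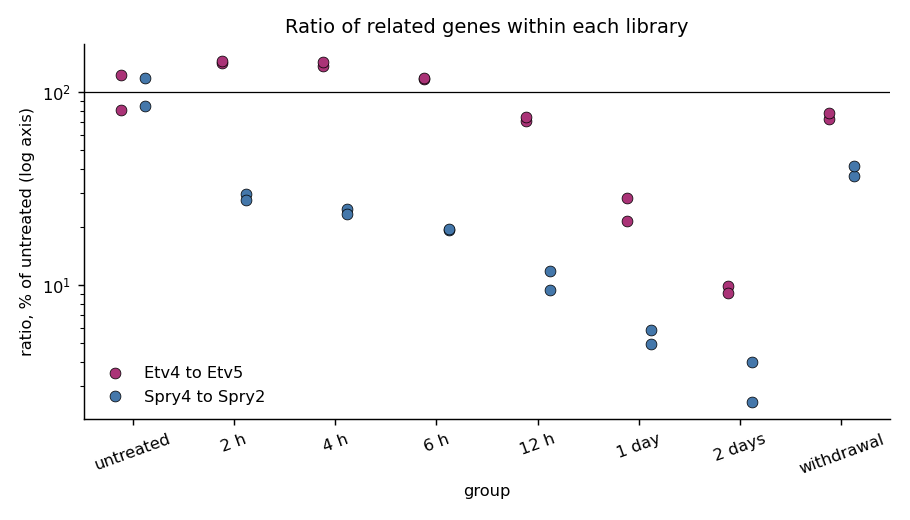
Ratio of Etv4 to Etv5 and of Spry4 to Spry2 in each of the 16 libraries (y axis, percent of the geometric mean of the untreated libraries, log scale) by group (x axis). Points are libraries. The Spry ratio is at 29.6% and 27.6% by 2 h, whereas the Etv ratio is at 143% and 145% then and falls to 9.88% and 9.17% by 2 days.

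Per kilobase of merged exons, a scale on which genes can be set side by side, the untreated levels in normalized counts were 2752 for Etv5, 662 for Etv4, 303 for Spry2, 176 for Dusp6 and 140.1 for Spry4. At 2 days the order was Etv5 (2143), Spry2 (363), Dusp6 (88.8), Etv4 (48.3) and Spry4 (5.68), so Etv4 passed from the second place to the fourth. As annotated exons, not the transcripts in use, set these lengths, they give an order of magnitude only.

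Across the 16 libraries the 5 genes did not form 1 pattern. Pearson's r of log2 values was 0.83 for Spry4 with Etv4, 0.79 for Spry4 with Dusp6, 0.76 for Etv5 with Dusp6 and 0.61 for Spry4 with Etv5. It was 0.45 for Etv4 with Dusp6 and 0.16 for Etv4 with Etv5, and Spry2 had r of -0.38 to 0.31 with the other 4. These values describe 16 libraries that share groups and scaling, and carry no test. Among genes with a mean of at least 50, the 8 most like the mean z-score of the 5 were Nop56 (r = 0.961 over 16 libraries) and Nhp2l1 (0.961), both of box C/D small nucleolar RNA particles, Phb2, Cnbp, Nono, Npm1, H2afz and Psmd6 (0.947). The least like were Dact3 (-0.947), Zmynd8, Syt13 and Pygb (-0.909). That choice is unsteady: of the 8, 3 stayed with Spearman's rho, 2 with group means and 0 when only the untreated, 1-day, 2-day and withdrawal libraries were used. Taken singly, Etv4 was most like Mcm6, a replicative helicase subunit, Ccne1, cyclin E1, and Ercc6l (r = 0.99 each). Spry4 was most like the histone deacetylase gene Hdac1 (0.98), Slbp and Hmgn1. Etv5 was most like B3gnt7 (0.98), Cct4 and Cacybp, Dusp6 most like Gldc (0.94), Dpp3 and Npm1, and Spry2 most like Lap3 (0.93), Igbp1 and Fam172a.

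The rest of the pathway was described from 8 lists of 122 different genes, with Fgf5 on both the ligand and the formative list. Of the 122, 105 were in the table and 99 were tested. At 2 days 27 of the 99 were higher and 24 lower than untreated, with 48 not passing, and their median log2 change was 0.09. Over all genes 44.8% were called at 2 days, 21% higher and 23.8% lower, so the 51 of 99 is near the background, and no one direction held along the pathway.

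Of 6 tested FGF ligands, 2 were higher and 2 lower at 2 days. Fgf4, the main ligand of these cells, rose by 0.47 (limma adjusted p = 2.2e-05), from 3127 and 3265 to 4457 and 4379, and fell by 0.58 on withdrawal. Fgf17 and Fgf15 fell by 3.15 and 2.78, from low means of 98.0 and 39.2 in untreated cells to 9.99 and 5.39 at 2 days. Fgf10 rose by 1.40, from a mean of 19.0 to 41.7. Its call was lost with the 2 groups alone (limma adjusted p = 0.16) and without the libraries of 2 to 12 h (0.11). It was also lost without either library of 2 days, and without the second untreated library, where the change was 0.41. Of 12 receptors and heparan sulphate genes, 5 were higher and 2 lower. Sdc4, the core protein of a heparan sulphate proteoglycan, rose by 2.41 (limma adjusted p = 3.8e-09), from 492.4 and 491.8 to 2549 and 2702. Hs6st1 and Ndst1, which sulphate the sugar chains, rose by 0.98 and 0.76, and the receptor genes Fgfr1 and Fgfr4 rose by 0.60 and 1.47. Sdc4 and Fgfr1 fell again on withdrawal, by 1.80 and 0.65.

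Among 17 adaptors and RAS-switch genes, 1 rose and 4 fell at 2 days. The docking protein gene Gab1 fell by 0.77, Ptpn11, which encodes the phosphatase SHP2, by 0.53, and Rras by 1.27, and the FGF receptor substrate gene Frs3 rose by 1.61. Of 11 genes for RAF, MEK, ERK and scaffolds, 4 rose and 2 fell. Mapk3, which encodes ERK1, held 1371 and 1486 in untreated cells and 749 and 756.5 at 2 days, a fall of 0.92 (limma adjusted p = 2.7e-05), and it rose by 0.79 on withdrawal. The scaffold genes Iqgap1 and Ksr1 and the kinase gene Araf rose by 0.48, 0.46 and 0.57.

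The other feedback inhibitors went both ways: of 15 tested, 3 rose and 5 fell at 2 days, with a median of 0.01. Spred1, a Sprouty-related inhibitor of RAS signalling, followed a course like that of Etv4. Untreated libraries held 1205 and 1374, the 2 h pair 1531 and 1637, the 12 h pair 1016 and 910.4, the 1-day pair 723 and 665, and the 2-day pair 490.5 and 505. The change at 2 days was -1.37 (SE 0.09, limma adjusted p = 1.2e-07), and Spred1 rose by 1.00 on withdrawal. Dusp4, a nuclear ERK phosphatase, held 57.1 and 85.4 in untreated cells, 11.2 and 13.6 at 12 h and 30.2 and 23.1 at 2 days (-1.37, limma adjusted p = 0.0022), lowest at 12 h as Dusp6 was. Pebp1, which encodes an inhibitor of RAF, fell by 0.51. Dusp1, a phosphatase gene that stress also induces, rose by 1.16, and Dusp8, whose product acts on JNK and p38, was called higher. Dusp8 held only 0.976 and 1.60 in untreated cells, within a few reads of 0, and 64.9 and 76.1 at 2 days, so no fold is given. It reached the average needed for testing only through groups where it was higher, which favours a call of higher. It is among the 3 counted as rising. Spry1, the third Sprouty gene tested, held 79.1 and 131 in untreated cells and 111 and 98.3 at 2 days and did not pass (0.04, limma adjusted p = 0.93).

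Of 20 other transcription factors and targets of ERK, 6 rose and 4 fell at 2 days. Myc held 438 and 435 in untreated cells, 138 and 113 at 12 h and 46.6 and 67.1 at 2 days (-2.94, limma adjusted p = 4.2e-08), and rose by 2.70 on withdrawal. Etv1, the remaining gene of the PEA3 group, held 837 and 852 in untreated cells, then 958 and 965 (2 h), 495 and 518 (12 h), and 325 and 319.5 by 2 days (-1.39, limma adjusted p = 2.3e-06), and rose by 1.27 on withdrawal. It thus fell by more than Etv5 and by less than Etv4, and these differences between genes were not tested. The AP-1 genes Jun and Fos went the other way, by 2.12 (limma adjusted p = 4.9e-06) and 2.54 (limma adjusted p = 6.2e-05). Between 2 and 12 h, 3 of these 20 rose and 4 fell, where 10.9% of all tested genes rose and 13.7% fell. The 7 calls were 3 without the second library of 2 h and 4 without the second of 12 h. Myc, Etv1 and Srf fell by 1.31, 0.92 and 0.74, calls that held in every alternative run. Maff fell by 1.10, a call lost without the second library of 2 h (adjusted p = 0.070) or the first of 12 h (0.12). Jun, Ier5 and Elk3 rose by 0.71, 0.90 and 0.69 (limma adjusted p = 0.032 to 0.045), and each of these calls was lost without the second library of 2 h (0.12 to 0.27) or the second of 12 h (0.22 to 0.28). That of Jun was also lost without the first library of 2 h (0.12), and those of Ier5 and Elk3 without several other libraries. Of the 15 other feedback inhibitors 0 rose and 3 fell over the same step, Spred1 by 0.72, Dusp4 by 2.24 and Pebp1 by 0.23, the last a call lost with either rescaling (0.058 and 0.060) and without the first (0.21) or second (0.052) library of 2 h or the first of 12 h (0.21).

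Further lists held naive genes, which ERK represses, and formative genes, which it raises as cells leave the naive state. The naive genes went both ways over the course. At 4 h, of 9 naive genes 1 was higher and 4 lower, with a median of -0.025, where 8.86% of all tested genes were higher and 10.2% lower. Tfcp2l1 rose by 0.67, and Klf5, Prdm14, Nr0b1 and Klf2 fell by 0.61, 0.55, 0.35 and 0.35. The 5 calls were 0 without the first library of 4 h or with the 2 groups alone, 1 without the second library of 4 h and 3 with library weights, and those of Klf5 and Prdm14 were also lost without the first untreated library (adjusted p = 0.12 and 0.26). At 6 h 1 was higher and 3 lower (median -0.052), against 10.9% and 13.4% of all genes, and these 4 calls were 2 without either library of 6 h or with the 2 groups alone. At 2 days 6 of the 9 were higher and 1 lower, with a median of 0.23, against 21% and 23.8% of all genes. The 7 calls were 4 without the second untreated library, without the first library of 2 days, or without the libraries of 2 to 12 h, and 3 with the 2 groups alone. Klf4, Prdm14 and Tfcp2l1 rose by 1.09, 0.74 and 0.62, and Nr0b1 fell by 0.54. The Tfcp2l1 call was lost with the 2 groups fitted alone (adjusted p = 0.064). Nr0b1 was lowest at 12 h, at -1.93 against untreated (limma adjusted p = 2.1e-08). Klf5 was also lower then (-0.65), Klf4 and Tfcp2l1 were higher (0.50 and 0.57), and the other naive genes did not pass. At 1 day Nr0b1 alone was lower (-1.01), and Klf4 and Tfcp2l1 alone were higher (0.92 and 0.51). Of 9 formative genes 0 were higher and 4 lower at 2 days, with a median of -0.43, against the same 21% and 23.8% of all genes. The falls were of Dnmt3b by 1.07 (limma adjusted p = 4.4e-07), Dnmt3a by 1.32, Pou3f1 by 1.01 and Foxd3 by 0.43. The 4 calls were 2 without the second library of 2 days or without the libraries of 2 to 12 h, and 1 with the 2 groups alone. Dnmt3b rose by 0.97 on withdrawal. The other 3 calls were each lost with the 2 groups alone (adjusted p = 0.072 to 0.122). The Dnmt3a call was also lost without the second untreated library (0.087), that of Pou3f1 without the second library of 2 days (0.059) and with library weights (0.057), and that of Foxd3 without the first untreated (0.17) or the second 2-day library (0.086). Those of Pou3f1 and Foxd3 were lost without the libraries of 2 to 12 h as well (0.059 and 0.072). Otx2, Zic2 and Pim2 did not pass at 2 days but were called lower at 2, 4 and 6 h. Their changes at 2 h were -0.96, -0.86 and -0.48. Foxd3 was called lower from 4 h on and was lowest at 12 h (-1.44). These early comparisons cross the split of libraries named above. No formative gene was called higher at any time in auxin.

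**Figure D4:**
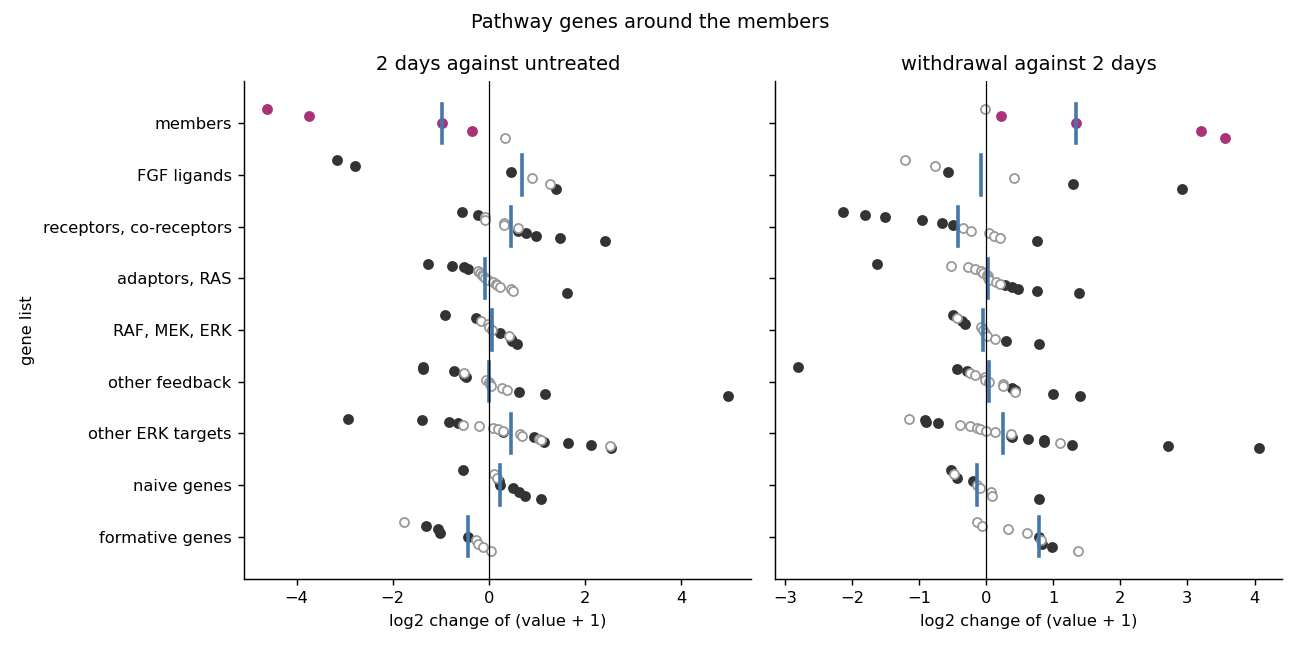
Log2 change (x axes, log2 of value + 1) at 2 days against untreated (left) and on withdrawal against 2 days (right) of every tested gene of each pathway list (y axis). Each point is a gene, filled where the limma adjusted p was below 0.05 and open where not, and the blue line is the list's median. In the left panel 4 of the 5 members lie left of 0 with a list median of -0.98, while ligands and receptors have medians of 0.68 and 0.46 and the other feedback inhibitors spread to both sides of 0.01. In the right panel the members' median is 1.33.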

How the data were processed

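Per the labels' protocols, mRNA libraries were prepared from total RNA with VAHTS Universal V6 reagents. The deposited table holds a signal, normalized counts: the authors divided gene counts by 1 factor per library, as far as its name and values tell. Per the submitters' processing notes, Trim Galore, STAR, RSEM and DESeq2 were used with mm10. Not given in the sources used here are their versions and roles, the annotation, and the rule that left 14552 genes. Among single-transcript genes, low values sat at whole multiples of 1 read's value, to within 0.1, in 75.8% to 99.3% of cases per library. Whole reads could not be recovered for all genes, and no count model was run.

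Genes averaging 10 or more across the 16 libraries were tested on log2(value + 1) in limma 3.58.1 (R 4.3.3), with a mean per group, an intensity trend and 8 residual degrees of freedom. Benjamini-Hochberg adjustment ran within each of 13 comparisons. Log2 changes had a median standard error of 0.158. Of the gene identifiers, 14467 were found in GENCODE M21. The code was tested on simulated data.

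The members, lists, comparisons and alternatives were chosen with earlier results of these data known. Besides the members, genes were named from each pathway list by smallest p or an adjusted p below 0.05. Some results are not reported here. Genes most like the members were named by Pearson's correlation, 8 highest and 4 lowest, with 3 for each member. The alternatives changed the pseudocount (0.5 or 5), the filter (none, or an average of 50 or more), the scaling (trimmed means of M values or upper quartiles) or the model (library weights, the replicate number as a block, the 2 compared groups alone), or left out each library in turn. Leaving out the 8 libraries of 2 to 12 h, using only those, and the motif GGAA were chosen after seeing the data.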

Additional observations from a re-analysis of the deposited data

How the results depend on the processing

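Of 1665 values of a member under an alternative, 1578 kept direction and side of the threshold. With the sign kept, 39 lost the call and 32 gained one. The other 16 changed sign, and are counted so whether or not the call changed. The calls of Spry4, Etv4 and Dusp6 at 12 h, 1 day and 2 days against untreated and the 4 from 2 to 12 h held in every alternative run. Depth limits Spry4 most, at an estimated 21.9 reads in 1 library of 2 days. The cause of the changes below was not tested.

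With each library left out in turn, members called ranged from 1 to 3 (2 h against untreated), 0 to 2 (withdrawal against untreated), 0 to 1 (4 h against 2 h), 0 to 2 (6 h against 2 h), 1 to 3 (1 day against 12 h) and 1 to 2 (2 days against 1 day). Genes called against untreated ranged from 501 to 2895 at 2 h, 926 to 3362 at 4 h, 1607 to 3966 at 6 h, 2831 to 5159 at 12 h and 67 to 1106 after withdrawal. They ranged from 97 to 569 (4 h against 2 h), 340 to 1561 (6 h against 2 h), 1773 to 3959 (12 h against 2 h), 1974 to 4728 (1 day against 12 h) and 206 to 1526 (2 days against 1 day). In the same orders, pathway genes ranged from 9 to 28, 9 to 35, 16 to 33, 23 to 51 and 3 to 22, and from 0 to 9, 3 to 17, 16 to 36, 11 to 36 and 0 to 15. Changes of sign gave ranges for Spry2 against untreated of -0.47 to 0.38 (2 h), -0.29 to 0.55 (4 h), -0.39 to 0.46 (6 h), -0.64 to 0.21 (12 h), -0.11 to 0.73 (1 day), -0.10 to 0.75 (2 days) and -0.12 to 0.73 (withdrawal). Spry2 ranged from -0.11 to 0.14 from 1 day to 2 days and from -0.073 to 0.033 on withdrawal. Etv4 at 4 h ranged from -0.29 to 0.24, Etv5 from 1 day to 2 days from -0.10 to 0.026, Dusp6 from 2 to 6 h from -0.29 to 0.12 and from 1 day to 2 days from -0.25 to 0.47, and Spry1 at 2 days from -0.32 to 0.39.

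With library weights, genes called were 1110 (2 h), 1504 (4 h), 1874 (1 day) and 130 (withdrawal) against untreated, where 2030, 2548, 4484 and 373 had been called. They were 1120 (4 h against 2 h), 2726 (6 h against 2 h), 5117 (12 h against 2 h), 2505 (1 day against 12 h) and 242 (2 days against 1 day), in place of 327, 1042, 3280, 4063 and 754. Pathway genes were 22 (4 h), 26 (1 day) and 6 (withdrawal) against untreated, then 14, 27, 41, 20 and 1. Members were 0 for withdrawal against untreated and 2 for 6 h against 2 h, the latter also with a mean of at least 50. With the 2 compared groups alone, genes against untreated were 408, 731, 1411, 2901, 1219 and 1 (2, 4, 6 and 12 h, 1 day, withdrawal), pathway genes 3, 7, 14, 24, 15 and 1, and members 1 at 2 h and 0 after withdrawal. The later steps gave 694 and 2274 genes (4 and 6 h against 2 h), 1685 (1 day against 12 h) and 0 (2 days against 1 day), with 11, 27, 10 and 0 pathway genes, 45 at 12 h against 2 h, and 2, 2, 1 and 0 members. Without the 8 libraries of 2 to 12 h, genes were 2924 (1 day), 15 (withdrawal against untreated) and 48 (2 days against 1 day), with 0 members and 0 pathway genes in the second and 0 pathway genes in the third. In those 8 alone, 4, 6 and 12 h against 2 h gave 1128, 2500 and 4987 genes, 19, 28 and 46 pathway genes, and 2 members in each of the first pair. Upper quartiles turned Etv5 from 1 day to 2 days to 0.0032. The 8 genes most like the members shared 3 (Spearman), 2 (group means) and 0 (the other 8 libraries) with those named, and ETS cores in the windows numbered 1 (CCGGAA), 2 (GGAAGT) and 17 (GGAA).

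Replicate numbers did not pair the libraries: over 28 pairs of groups the deviations of same-numbered libraries correlated at -0.061 to 0.066. With the replicate block, 64 of 65 member results kept their call, and Spry2 from 12 h to 1 day passed (0.53, limma adjusted p = 0.035).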

Other observations

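Egr1, an immediate early gene that ERK induces within minutes, did not follow Spry4 or Etv4. Its untreated libraries held 30.3 and 16.2 normalized counts, and none of the 8 libraries of 2 to 12 h exceeded 21.5. The replicates of 1 day differed widely, at 611 and 16.4, those of 2 days held 212 and 82.4, and the withdrawal pair held 2559 and 1960. Withdrawal was thus above untreated by 6.60 on the log2 scale (limma adjusted p = 0.0072), where Spry4 was lower and Dusp6 did not pass. That call was lost without the first (adjusted p = 0.071) or the second (0.057) withdrawal library, and without the libraries of 2 to 12 h (0.12). Fos, a second immediate early gene, held 168 and 75.0 in untreated cells, 41.9 to 54.0 between 2 and 12 h, and 577 to 670 at 2 days and after withdrawal.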
